A study of Mus musculus with 20 samples.

Results

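The 8 genes described here encode proteins of the red cell membrane: the skeleton proteins Sptb, Ank1, Epb41, Epb42 and Add2, the anion exchanger Slc4a1, and the blood group proteins Rhag and Kel. They were chosen by symbol, and all 8 were found in both count tables, among 55486 genes per table. RNA came from bone marrow and kidney of C57BL/6 mice, both sexes according to the methods and 10 weeks old at the start, that were given the platinum drug oxaliplatin, dissolved in 5% dextrose and dosed at 10 mg/kg, or the 5% dextrose vehicle without drug. The comparison addresses how the drug affects blood formation. Injections into the abdominal cavity went on for 8 weeks, and 6 days after the final one the marrow was spun out of the tibia and femur. There were 5 libraries in each of the 4 groups and 20 in all, 1 mouse behind each library of a tissue. Whether a kidney and a marrow library of the same number came from the same mouse is not stated in the labels, so the p values treat all 20 as independent.

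Total counts per library ranged from 30660153 to 41140527 in marrow and from 24393007 to 30925430 in kidney. Values are CPM, counts set relative to the library's total after edgeR's TMM scaling, and 3 counts, the floor used here, correspond to between 0.0729 and 0.0978 CPM in marrow and between 0.0970 and 0.123 CPM in kidney, for counting error only. Summed CPM of 4 Y-linked genes lay between 77.5 and 173 in the 20 libraries and Xist did not exceed 2.88 CPM, so no library had the profile of a female mouse. A gene was called when the Benjamini-Hochberg adjusted p of edgeR's quasi-likelihood test was under 0.05 over all genes tested in that tissue and its change exceeded 1.5-fold. At this rule 2632 of 22363 genes tested in marrow were lower after oxaliplatin and 2589 were higher. When only library size was used for scaling, the median log2 fold change of all marrow genes moved from -0.04 to 0.11 and the share of higher calls from 49.6% to 63.4% in marrow and from 66.8% to 82.7% in kidney.

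The red cell survives repeated squeezing through capillaries because a net of spectrin tetramers lies under its lipid bilayer. Ankyrin ties beta-spectrin to band 3, the product of Slc4a1, with protein 4.2 at the same complex, and protein 4.1R and adducin join spectrin to short actin filaments at the nodes of the net. Rh-associated glycoprotein sits in the band 3 complex, and the Kell protein, an endopeptidase, sits at the surface beside its partner Xk. These genes are switched on as erythroblasts mature, under the factors Gata1 and Klf1, and loss of the skeleton proteins causes spherocytosis or elliptocytosis.

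Add2 and Kel lie far apart on chromosome 6 and the other 6 genes each lie on a chromosome of their own. In GRCm38 with the GENCODE M21 annotation, Sptb (ENSMUSG00000021061) occupies chr12:76580488-76710547, Ank1 (ENSMUSG00000031543) chr8:22974844-23150497, Epb41 (ENSMUSG00000028906) chr4:131923413-132075321, Epb42 (ENSMUSG00000023216) chr2:121017891-121037072 and Add2 (ENSMUSG00000030000) chr6:86028681-86124409. Slc4a1 (ENSMUSG00000006574) lies at chr11:102348824-102366203, Rhag (ENSMUSG00000023926) at chr17:40811126-40840754 and Kel (ENSMUSG00000029866) at chr6:41686330-41704339. Ank1, Add2 and Rhag are on the plus strand and the other 5 on the minus strand. Of the 8 genes, 4 share exon bases with a gene on the opposite strand: Sptb with Plekhg3 (1 base), Ank1 with Gm15816 (862 bases), Epb41 with Gm10300 (142 bases) and Gm13063 (91 bases), and Add2 with Gm44089 (356 bases). Strand use during counting is not given in the sources used here, so reads in those bases cannot be assigned to 1 of the strands. The highest count of these partners in any marrow library was 4923 for Plekhg3, 620 for Gm15816, 795 for Gm10300, 292 for Gm13063 and 139 for Gm44089.

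Since all 8 genes moved the same way in marrow, their start sites are shown. RefSeq windows of GRCm38.p6, 250 bases before to 50 after a start site, were held for 6 of the 8 genes, 8 windows in all with 3 for Epb41. GATA motifs were searched only as AGATAA or TGATAA, on either strand, and not in forms ending in AG, such as AGATAG. The 3 windows with a match are printed with it in capitals, together with the Sptb window, which has neither searched form. All are written 5′ to 3′ on the strand of the gene; a motif on the opposite strand reads as its reverse complement.
Kel, chr6:41704276-41704575: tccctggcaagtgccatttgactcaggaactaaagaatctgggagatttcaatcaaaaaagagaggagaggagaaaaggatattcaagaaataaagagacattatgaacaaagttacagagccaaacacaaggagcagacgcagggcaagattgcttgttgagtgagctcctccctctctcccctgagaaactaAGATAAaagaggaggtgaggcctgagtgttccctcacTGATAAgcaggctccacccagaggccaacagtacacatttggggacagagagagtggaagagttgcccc
Rhag, chr17:40810899-40811198: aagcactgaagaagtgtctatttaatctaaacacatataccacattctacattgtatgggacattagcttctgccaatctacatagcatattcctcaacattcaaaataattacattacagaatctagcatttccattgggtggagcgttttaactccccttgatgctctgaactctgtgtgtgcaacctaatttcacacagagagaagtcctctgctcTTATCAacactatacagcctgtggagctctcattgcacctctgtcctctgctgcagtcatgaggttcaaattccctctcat
Epb42, chr2:121036828-121037127: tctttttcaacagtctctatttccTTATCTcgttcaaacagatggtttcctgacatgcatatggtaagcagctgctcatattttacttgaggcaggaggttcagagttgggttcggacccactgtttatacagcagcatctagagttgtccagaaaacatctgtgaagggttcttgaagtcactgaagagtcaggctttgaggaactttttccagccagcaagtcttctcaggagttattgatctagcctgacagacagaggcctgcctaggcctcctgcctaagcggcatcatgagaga
Sptb, chr12:76710498-76710797: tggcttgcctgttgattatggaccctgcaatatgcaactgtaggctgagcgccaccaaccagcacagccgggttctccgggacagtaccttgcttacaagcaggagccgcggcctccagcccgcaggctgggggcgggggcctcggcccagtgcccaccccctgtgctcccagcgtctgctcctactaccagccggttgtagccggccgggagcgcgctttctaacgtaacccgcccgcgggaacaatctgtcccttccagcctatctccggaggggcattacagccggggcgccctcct
Kel carried AGATAA 56 bases and TGATAA 19 bases before its start site, both on the strand of the gene. Rhag carried TGATAA on the opposite strand 31 bases before its start site, and Epb42 carried AGATAA on the opposite strand 226 bases before its own. Of all 32851 RefSeq windows of this length, 11.2% held AGATAA, 9.05% held TGATAA and 18.6% held either. The CACC motif CCACACCC of Klf1 was in 0 of the 6 genes' windows and in 3.56% of all windows. The Sptb window reads ctatct, the reverse complement of AGATAG, a form that was not searched. A match is a description of the letters in the window and was not tied to the expression values.

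In bone marrow all 8 genes were lower after oxaliplatin: all 8 passed the filter on low counts and all 8 were called, against 11.8% of the genes tested that were called lower. In all 8 the highest oxaliplatin mouse lay under the lowest vehicle mouse, which held for 13.5% of the genes tested. The mean level left was between 11.8% of the vehicle mean (Epb42) and 33.2% (Add2), with a median of 24.1% over the 8 genes. Their median log2 fold change was -2.06, beside -0.04 over all genes tested. In whole marrow, fewer erythroid cells and less of each RNA per cell cannot be told apart.

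**Figure D1:**
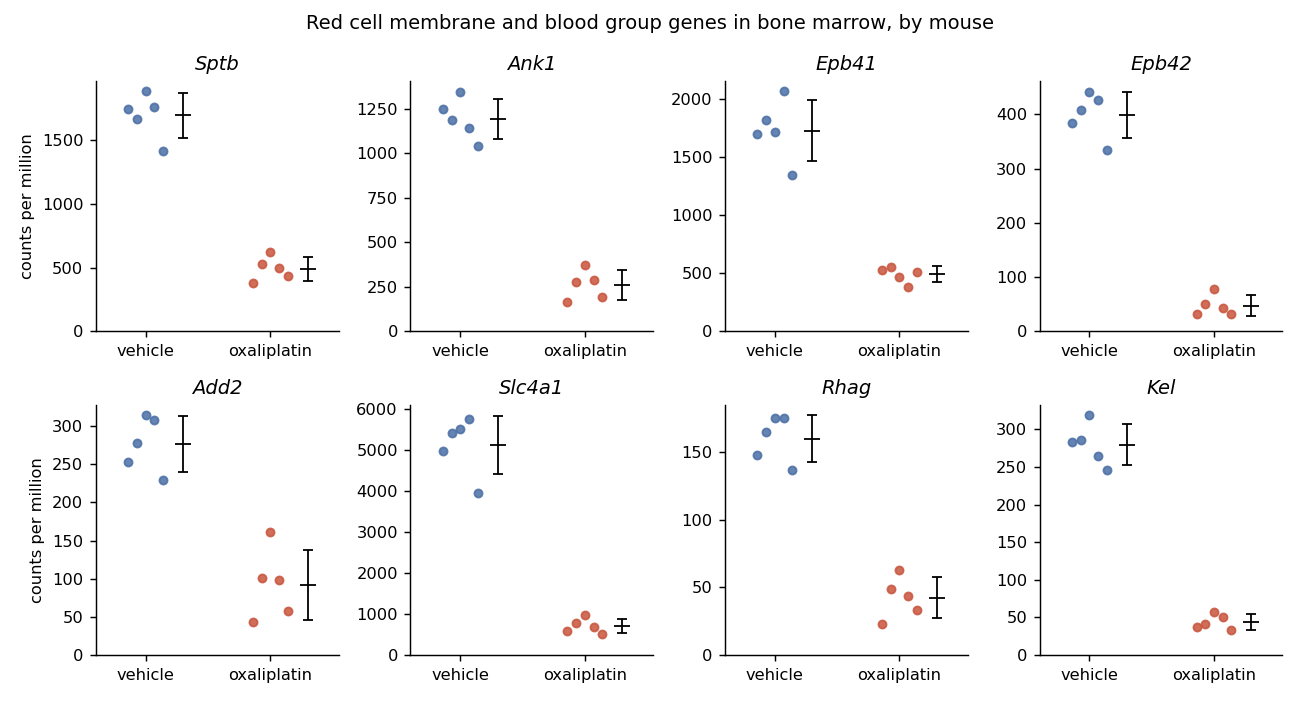
Each point is the CPM of 1 mouse in bone marrow (vertical axis, linear from 0), 5 vehicle and 5 oxaliplatin mice per gene, with the mean and SD as a bar beside the points. In each of the 8 panels the oxaliplatin mice lie under all vehicle mice; Epb42 has the lowest share left and Add2 the widest spread among oxaliplatin mice.

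Beta-spectrin, the product of Sptb, forms the long strands of the skeleton. Sptb stood at 1747.0, 1666.6, 1888.5, 1761.1 and 1413.8 CPM in vehicle mice 1 to 5 and at 375, 527, 625, 493 and 432 CPM in oxaliplatin mice 1 to 5. The highest treated mouse, mouse 3, was still well under the lowest vehicle mouse, mouse 5. With means of 1695.4 ± 176 and 490 ± 95.0 CPM (SD, n = 5 each), the log2 fold change was -1.79 (SE 0.15, adjusted p = 1.7e-06 in edgeR), or 3.46-fold lower.

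Ankyrin-1, the link between spectrin and band 3, fell more steeply. Ank1 read 1245.5, 1186.9, 1345.3, 1142.0 and 1041.0 CPM with vehicle and 165, 275, 374, 288 and 194 CPM with oxaliplatin. The treated mice differed by up to 2.27-fold among themselves, with mouse 3 highest and mouse 1 lowest. Ank1 had a log2 fold change of -2.20 (SE 0.20, adjusted p = 3.7e-06), 4.60-fold lower.

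Protein 4.1R, made from Epb41, stabilises the junction of spectrin and actin. Epb41 gave 1697.6, 1818.6, 1715.4, 2073.0 and 1347.3 CPM with vehicle and 532, 556, 470, 383 and 515 CPM with oxaliplatin. Its treated mice were the closest together of the 8 genes, with a coefficient of variation of 13.9%, and here mouse 2 was highest and mouse 4 lowest. This gave a log2 fold change of -1.82 (SE 0.14, adjusted p = 1.2e-06), 3.52-fold lower.

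Protein 4.2, made from Epb42, belongs to the transglutaminase family and binds band 3 and ankyrin. Epb42 stood at 385, 409, 440, 427 and 334 CPM with vehicle and at 32.5, 49.9, 78.5, 42.5 and 32.4 CPM with oxaliplatin. Every treated mouse kept at most 19.7% of the vehicle mean, and the treated mean was 11.8% of it, the lowest of the 8 genes. In edgeR Epb42 had a log2 fold change of -3.08 (SE 0.23, adjusted p = 1.1e-06), 8.46-fold lower.

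Beta-adducin, made from Add2, caps actin filaments at the junctions. Add2 had 7996, 9562, 9985, 10823 and 7052 counts with vehicle and 1506, 3224, 6892, 4396 and 2120 counts with oxaliplatin, with means of 277 ± 36.3 and 92.0 ± 45.8 CPM. In CPM the treated mice spread 3.70-fold, the widest of the 8 genes, from mouse 1 with 15.7% of the vehicle mean to mouse 3 with 58.1%. The log2 fold change was -1.59 (SE 0.30, adjusted p = 0.00143), 3.01-fold lower, the smallest fall of the 8.

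Band 3, the chloride and bicarbonate exchanger encoded by Slc4a1, is the main integral protein of the membrane and the carrier of the Diego blood group. Slc4a1 stood at 4977.3, 5408.0, 5504.8, 5756.7 and 3952.6 CPM with vehicle and at 578, 789, 963, 692 and 512 CPM with oxaliplatin. Mouse 3 again held the highest treated value and mouse 5 the lowest, and both lay far under the vehicle range. Means were 5119.9 ± 711 and 707 ± 178 CPM, and the log2 fold change was -2.86 (SE 0.19, adjusted p = 3.8e-07), 7.25-fold lower.

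Rh-associated glycoprotein, made from Rhag, is needed for Rh proteins to reach the surface. Rhag read 148, 165, 176, 176 and 137 CPM with vehicle and 22.9, 48.5, 63.0, 43.7 and 33.1 CPM with oxaliplatin. Mouse 3 kept 39.3% of the vehicle mean and mouse 1 kept 14.3%. Rhag had a log2 fold change of -1.92 (SE 0.22, adjusted p = 3.1e-05), 3.79-fold lower.

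The Kell protein carries the blood group of that name and cleaves peptides outside the cell. Kel stood at 284, 286, 319, 265 and 246 CPM with vehicle and at 36.5, 41.1, 57.7, 50.1 and 32.5 CPM with oxaliplatin. No treated mouse kept more than 20.6% of the vehicle mean. Kel had a log2 fold change of -2.68 (SE 0.15, adjusted p = 1.3e-07), 6.42-fold lower and the smallest adjusted p of the 8 genes.

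Per kilobase of exon, Slc4a1 had the highest level of the 8 genes in marrow, 1046.8 ± 145 CPM per kb with vehicle and 145 ± 36.5 with oxaliplatin. With vehicle, Sptb followed at 140 ± 14.5, Epb41 at 109 ± 16.4, Kel at 100.9 ± 9.74, Ank1 at 88.1 ± 8.41, Epb42 at 73.7 ± 7.71, Rhag at 68.5 ± 7.42 and Add2 at 27.3 ± 3.58 CPM per kb. Slc4a1 stood clear of Sptb and Rhag clear of Add2, while the ranges of all neighbours between Sptb and Rhag overlapped. Mouse by mouse, each gene in this order was above the next in all 5 vehicle mice, except Epb41 over Kel, in 3. With oxaliplatin the order was Slc4a1, Sptb at 40.4, Epb41 at 30.8, Ank1 at 19.2, Rhag at 18.1, Kel at 15.7, Add2 at 9.08 and Epb42 at 8.70 CPM per kb, and Slc4a1 alone had a range clear of its neighbour. Mouse by mouse, each gene in the oxaliplatin order was above the next in between 3 and 5 of the 5 treated mice. The summed share of all counts held by the 8 genes lay between 0.862% and 1.11% in vehicle marrow. After oxaliplatin that share lay between 0.184% and 0.291%.

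Across the genes, the same treated mice tended to hold the high values. Mouse 3 was highest for 7 of the 8 genes and mouse 2 was among the highest pair for 6, whereas the lowest value fell in mouse 1 for 4 genes, mouse 5 for 3 and mouse 4 for 1. The hemoglobin genes and Alas2, the first enzyme of heme synthesis in erythroid cells, had another order: mouse 2 was highest and mouse 4 lowest for Hba-a1, Hba-a2, Hbb-bs, Hbb-bt and Alas2. Other erythroid genes outside the membrane had an order seen among the 8 genes, with mouse 3 highest. Trim10 stood in the order of Slc4a1 and Epb42, and Gata1 and Klf1 in that of Ank1. Mouse 4 kept 29.1% of the vehicle mean of Sptb and 24.2% of Ank1, but 7.77% of Hba-a1 and 7.09% of Hbb-bs. Epb41 was the exception among the 8 genes, since its treated mice stood in the same order as for Hba-a2, Hbb-bs and Alas2. After each group's mean was subtracted, Pearson's r with the mean log2 CPM of the 8 genes over the 10 marrow libraries was 0.05 for Epb41 and from 0.86 to 0.98 for the other 7, each of which is part of that mean.

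**Figure D2:**
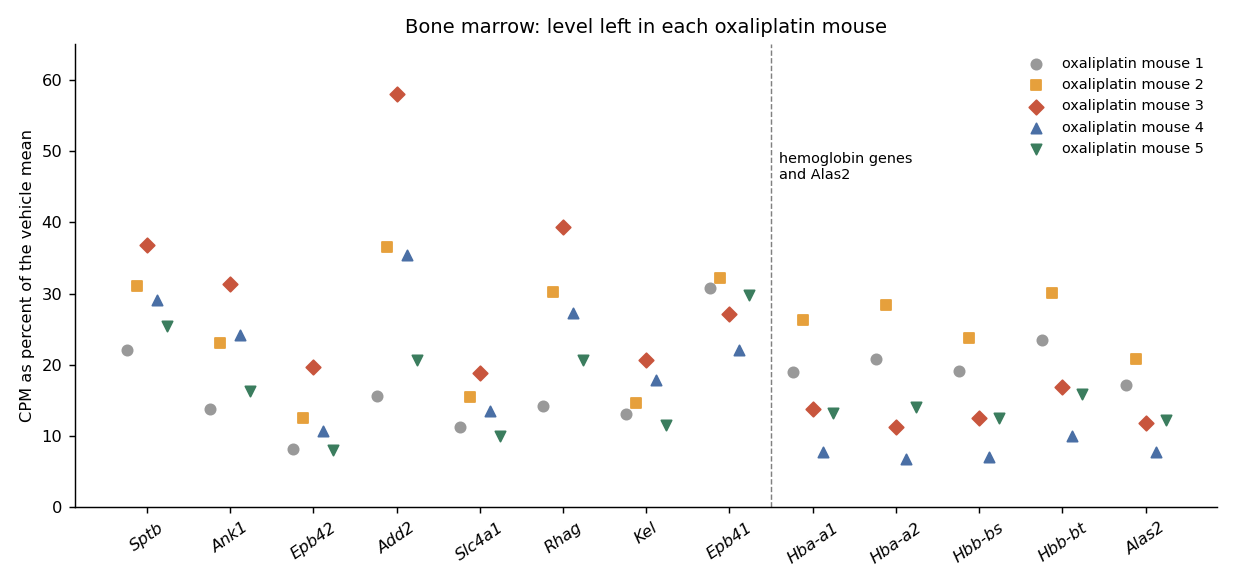
Points give CPM in each of the 5 oxaliplatin marrow libraries as a percent of the vehicle mean (vertical axis), with 1 symbol per mouse, for the 8 genes on the left of the dashed line and 4 hemoglobin genes and Alas2 on the right. Mouse 3 (diamonds) lies highest for 7 of the 8 genes and mouse 4 (upward triangles) lowest for the hemoglobin genes. Epb41 has the order of Hba-a2, Hbb-bs and Alas2.

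Other transcripts also differed between these libraries. Summed CPM of 8 neutrophil markers, of which 0 were called, lay between 19068.8 and 23259.8 with vehicle but at 9605.5 in oxaliplatin mouse 3 and 11387.8 in mouse 4, and 5 skeletal muscle markers summed to 701 CPM in mouse 3, above 39.5 to 327 CPM in the other treated mice. Without oxaliplatin mice 3 and 4, all 8 genes were still called and their log2 fold changes lay between -3.38 (Epb42) and -1.70 (Epb41). Over the groups, 8 of 10 early erythroid markers and 12 of 12 late erythroid markers outside the membrane were called lower, as were 5 of 6 B cell markers. Called higher were 6 of 6 megakaryocyte, 3 of 6 macrophage, 5 of 5 adipocyte and 4 of 5 skeletal muscle markers. Of all marrow genes tested, 11.8% were called lower and 11.6% higher. The adipocyte markers summed to between 19.3 and 50.7 CPM with vehicle and between 252.3 and 1698.5 CPM with oxaliplatin, and the late erythroid markers to between 28315.7 and 50496.6 and between 3365.0 and 10133.4 CPM. The part of these shifts in the values of the 8 genes was not tested.

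The 8 genes did not fall in fixed proportion. For this, 8 ratios of CPM within each marrow library, which do not depend on scaling between libraries, were compared with an exact two-sided permutation test over all divisions of 10 mice into 5 and 5, whose smallest p is 0.00794. Of the 8, 4 differed after Benjamini-Hochberg adjustment over the 8 ratios, each with no overlap between groups and an adjusted p of 0.0159; 3 of these 4 are described.

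Ankyrin RNA fell further than that of spectrin and less far than that of band 3, the proteins it joins. Ank1 to Sptb fell by 0.45 on the log2 scale, from ratios of 0.648 to 0.736 with vehicle to ratios of 0.439 to 0.598 with oxaliplatin. Ank1 to Slc4a1 rose by 0.62, from 0.198 to 0.263 with vehicle to 0.285 to 0.417 with oxaliplatin. Rhag to Slc4a1 rose by 0.88, from 0.0297 to 0.0346 with vehicle to 0.0397 to 0.0655 with oxaliplatin. Within the same libraries, Slc4a1 RNA therefore fell further than the RNA of Ank1 and Rhag.

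In the 4 other ratios the groups overlapped. Epb42 to Slc4a1 was lower by 0.28 on average (difference -0.28, exact permutation p = 0.0397, adjusted p = 0.0529) and Add2 to Add1, beta against alpha adducin, had a difference of -0.88 (exact permutation p = 0.0397, adjusted p = 0.0529). Without oxaliplatin mouse 3 both passed, at differences of -0.36 and -1.11 (adjusted p = 0.0106 in the exact permutation test). Epb41 to Sptb differed by -0.01 and Add2 to Sptb by 0.08 (adjusted p = 0.952 and 0.835 in the exact permutation test), with group SDs of 0.15 and 0.39 for the first and 0.10 and 0.47 for the second. Both of these differences changed sign without oxaliplatin mouse 3, to 0.09 and -0.07.

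**Figure D3:**
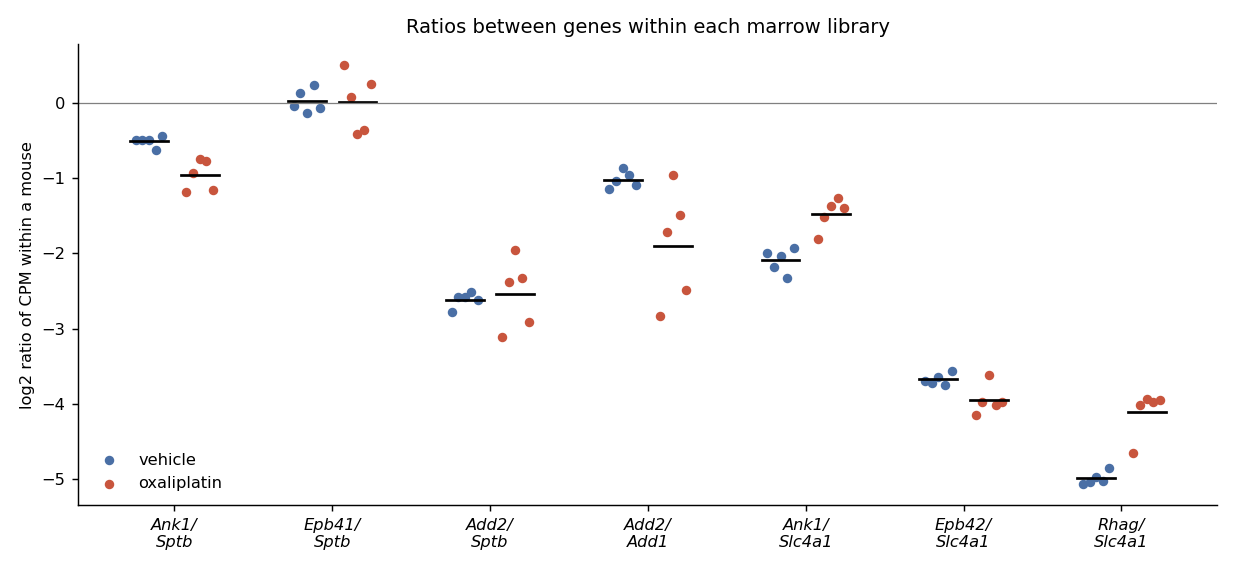
Points give the log2 ratio of CPM of 2 genes within each of 10 marrow libraries (vertical axis), vehicle and oxaliplatin side by side for 7 ratios, with a bar at each group mean. The groups are apart for Ank1/Sptb, Ank1/Slc4a1 and Rhag/Slc4a1 and overlap for the other 4.

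Of 12 further genes of the skeleton and its anchors, all tested in marrow, 6 were called lower, against 11.8% of all marrow genes tested, and 2 were called higher. The median log2 fold change of the 12 was -0.85, beside -0.04 over all genes tested. Of the lower genes, 5 are described: Tmod1, which caps the slow end of actin filaments (-2.54, SE 0.17), Dmtn, the actin bundler dematin (-2.36, SE 0.23), Atp2b4, a calcium pump (-1.65, SE 0.13), Kcnn4, the calcium-gated potassium channel (-1.49, SE 0.17), and Stom, stomatin (-1.16, SE 0.11). The higher genes were Slc2a1, a glucose transporter (0.95, SE 0.17, adjusted p = 9.0e-04), and Tpm1, a tropomyosin (0.89, SE 0.17, adjusted p = 0.0012). Their share of the list was near the 11.6% of all genes tested that were called higher. Among the 4 not called, Tmod3, Tpm3 and Actb had log2 fold changes of 0.43, 0.29 and 0.19. Mpp1, at -0.54 (adjusted p = 0.00143), was under the fold threshold and passed it without vehicle mouse 5 (-0.59) or without oxaliplatin mouse 3 (-0.61). Genes of this list with wide use outside red cells, such as Actb at 10045.6 ± 984 CPM with vehicle, are read from all marrow cells.

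A further list of 30 genes held other protein carriers of blood group systems and Cd47, which belongs to the Rh complex. Of the 30, 28 were tested, 13 were called lower and 2 higher, with a median log2 fold change of -0.51. Of all marrow genes tested, 11.8% were called lower and 11.6% higher. The count called higher was no more than that background. Icam4 was listed at 0 in every library and Aqp3 had too few counts. Among the larger falls were Rhd, the Rh protein that pairs with Rhag (-2.96, SE 0.28), Aqp1, the water channel (-2.89, SE 0.25), Art4 (-2.52, SE 0.21) and Ermap (-2.37, SE 0.26). Abcb6 (-1.75), Prnp (-1.05), Gypc (-1.01), Xk, the partner of Kel (-0.94, SE 0.14), Smim1 (-0.92), Abcg2 (-0.88), Bsg (-0.71) and Cd47 (-0.60) were also called lower. Rhd went from 255 ± 40.3 to 32.6 ± 14.5 CPM and Xk from 78.2 ± 7.62 to 40.8 ± 8.77 CPM, so the Kell partner fell less than Kel itself in estimate, a difference that was not tested.

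Bcam, the Lutheran adhesion protein, and Cd151, a tetraspanin, were higher, at 2.20 (SE 0.23, adjusted p = 1.2e-05) and 1.04 (SE 0.12, adjusted p = 2.8e-05). Bcam went from 3.09 ± 0.599 to 14.3 ± 4.19 CPM and Cd151 from 38.5 ± 3.29 to 78.9 ± 13.7 CPM. Both are read from all marrow cells, and which cells held the added RNA was not tested. The call of Cd47 stood at the threshold, 1.51-fold, and was lost when vehicle mouse 4 (-0.58) or oxaliplatin mouse 3 (-0.58), 4 (-0.56) or 5 (-0.58) was left out. The same happened to Cd47 under 5 other settings, and to Bsg when library size alone was used (-0.56). Ackr1 (-0.50) gained a call without oxaliplatin mouse 1 (-0.59).

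Of 20 relatives of the 8 genes that are used in other cells, 19 were tested in marrow, with a median log2 fold change of 0.11. The test called 2 lower, a share near the 11.8% of all marrow genes called lower, and 5 higher, against 11.6% called higher. The lower ones were Epb41l3 (-1.66, SE 0.17, adjusted p = 1.2e-05) and Add1, alpha-adducin (-0.85, SE 0.09, adjusted p = 1.8e-05). Adducin is itself part of the red cell skeleton, so Add1 is not a gene of other cells alone. The higher ones were Epb41l1 (0.90), Ece1 (0.86), Ank3 (0.85), Ank2 (0.77) and Mme (0.76). Sptan1 and Sptbn1, the spectrins of non-erythroid cells, had log2 fold changes of 0.11 (SE 0.14) and 0.21 (SE 0.12), neither called, and Slc4a2, the widely used anion exchanger, 0.05 (SE 0.08). The call of Mme was lost without oxaliplatin mouse 4 (0.62, adjusted p = 0.0505), and Mme and Ank3 were lost without mice 3 and 4 together (0.41 and 0.55). Rhbg had too few counts in marrow.

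In kidney, the comparison tissue, none of the 8 genes was called lower. The test covered 6 of them and called 2 higher, against 7.68% of 19293 genes called higher, and only Add2 had groups that did not overlap, which held with higher treated mice for 9.69% of the genes tested. Levels differed widely from those in marrow: per kilobase, Epb41 led with 21.4 ± 0.905 CPM per kb in vehicle kidney, Slc4a1 followed with 9.63 ± 1.33 and Sptb with 1.197 ± 0.151, while the other 5 were under 0.149.

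Slc4a1 has a kidney form, made from an internal start, in the acid-secreting intercalated cells of the collecting duct. Slc4a1 stood at 57.3, 41.3, 46.1, 42.0 and 48.8 CPM in vehicle kidneys and at 62.7, 106, 71.3, 86.7 and 52.3 CPM in oxaliplatin kidneys. Treated mouse 5 lay inside the vehicle range and mice 2 and 4 highest. The log2 fold change was 0.69 (SE 0.18, adjusted p = 0.0175), 1.61-fold higher; without oxaliplatin mouse 2 it was 0.53, under the fold threshold, and without mice 2 and 4 it was 0.41. With a replicate block the adjusted p was 0.0536. Of 8 intercalated cell markers 1 was called higher, the water channel Aqp6 (0.75, SE 0.10), against 7.68% of all kidney genes tested. The summed CPM of the 8 markers lay between 687 and 734 with vehicle and between 805 and 932 with oxaliplatin. The part of this shift in the Slc4a1 value was not tested.

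Add2 rose in kidney at a low level. The CPM were 0.821, 0.800, 0.518, 0.604 and 0.932 with vehicle and 1.22, 2.09, 0.971, 2.14 and 2.10 with oxaliplatin, from between 12 and 23 counts and between 27 and 70 counts. All treated mice lay above all vehicle mice. The log2 fold change was 1.21 (SE 0.29, adjusted p = 0.00416), and it stayed called at 0.97 (adjusted p = 0.0400) without mice 2 and 4.

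Sptb had an adjusted p of 0.00347 in kidney at a log2 fold change of 0.44 (SE 0.10), under the fold threshold, from 14.5 ± 1.83 to 19.7 ± 1.99 CPM. Epb41 stood at 342 ± 14.4 and 366 ± 29.8 CPM, with a log2 fold change of 0.10 (SE 0.07, adjusted p = 0.303), and Epb42 at 0.804 ± 0.282 and 0.945 ± 0.357 CPM with 0.23 (SE 0.33, adjusted p = 0.634). The sign of the Epb42 estimate turned without oxaliplatin mouse 2, to -0.025.

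Ank1 in kidney changed its call with the setting and with the libraries used. Its counts were 29, 20, 18, 12 and 30 with vehicle and 17, 92, 39, 119 and 31 with oxaliplatin. Mice 2 and 4 stood above the rest, and the other 3 treated mice overlapped the vehicle group. The log2 fold change was 1.23 (SE 0.49, adjusted p = 0.0738), not called. On all libraries it was called by DESeq2 (1.23, adjusted p = 0.0221) and in edgeR scaled by library size alone (1.38, adjusted p = 0.0430). In edgeR it was also called without oxaliplatin mouse 1 (1.47, adjusted p = 0.0158) or mouse 5 (1.43, adjusted p = 0.0433), and fell to 0.19 (adjusted p = 0.754) without mice 2 and 4.

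The same pair of libraries held more erythroid RNA. The 4 hemoglobin genes took 0.0698% and 0.0727% of the counts in oxaliplatin kidneys 2 and 4, against between 0.0247% and 0.0403% in vehicle kidneys and between 0.00465% and 0.0222% in the other 3 treated kidneys. Kel, with too few counts to be tested, gave 4, 1, 4, 4 and 2 counts with vehicle and 0, 22, 2, 13 and 14 with oxaliplatin. Rhag gave 2, 3, 0, 4 and 0 counts with vehicle and 1, 6, 3, 12 and 6 with oxaliplatin. The part of blood or erythroid cells in these kidney libraries was not tested. As to the tissue itself, 4 proximal tubule markers summed to between 14436.8 and 16967.2 CPM with vehicle and between 11143.9 and 14485.7 CPM with oxaliplatin (1 of 4 called lower), and 3 of 4 podocyte markers were called higher. Of 19293 genes tested in kidney, 735 were called lower and 1481 higher.

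**Figure D4:**
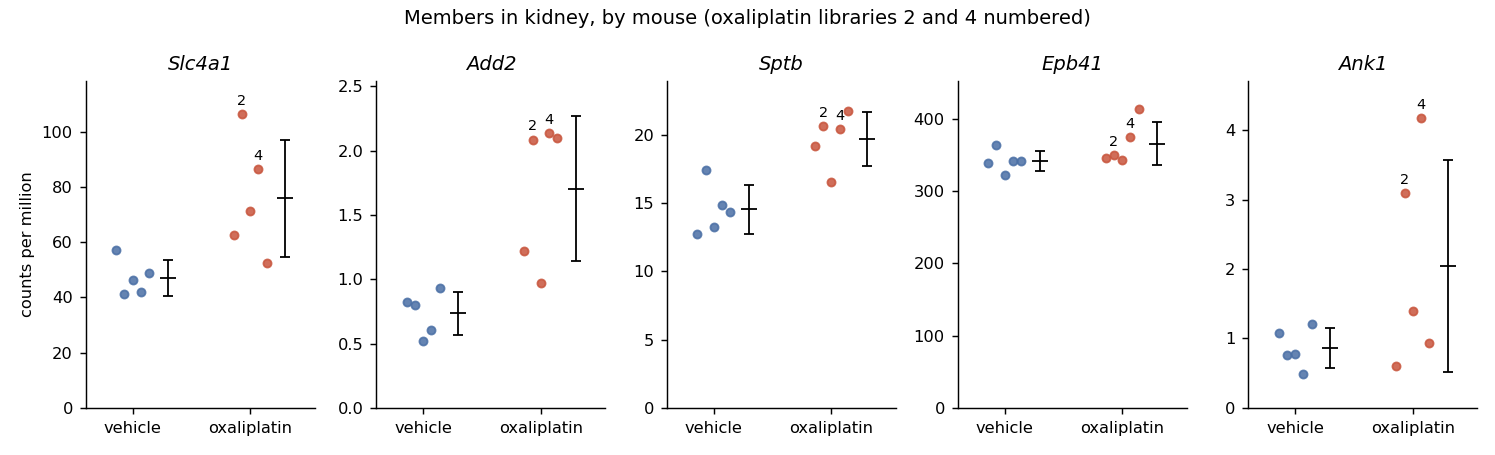
Points give CPM per mouse in kidney for 5 of the 8 genes (vertical axes, linear from 0, each with its own scale), with mean and SD beside them and oxaliplatin libraries 2 and 4 numbered. Add2 is the panel in which the groups do not overlap, and Ank1 reaches 3.10 and 4.18 CPM in libraries 2 and 4.

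The change in marrow lay below the change in kidney for all 8 genes, 6 of which could also be tested in kidney alone. This was the interaction of tissue and treatment, tested with edgeR over the 20 libraries (adjusted p under 0.05, no fold threshold). Of 24321 genes tested, 13.1% had a lower change in marrow at that rule. The difference of log2 fold changes, marrow minus kidney, was -3.48 for Slc4a1 (adjusted p = 4.2e-09), -1.86 for Epb41 (adjusted p = 4.6e-09) and -2.16 for Sptb (adjusted p = 1.7e-08), the genes with the highest kidney levels. The other 3 genes tested in kidney had differences of -3.23 (Epb42), -3.36 (Ank1) and -2.72 (Add2). Kel (-4.12, adjusted p = 1.0e-04) and Rhag (-3.22, adjusted p = 0.00644) passed the filter of the joined fit only through their marrow counts. Their differences rest on kidney counts of between 0 and 22 and depend on how low counts are modelled. Without oxaliplatin kidneys 2 and 4 the Rhag difference was -2.47 and no longer passed (adjusted p = 0.115), and those of Ank1 and Kel shrank to -2.30 and -3.17.

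**Figure D5:**
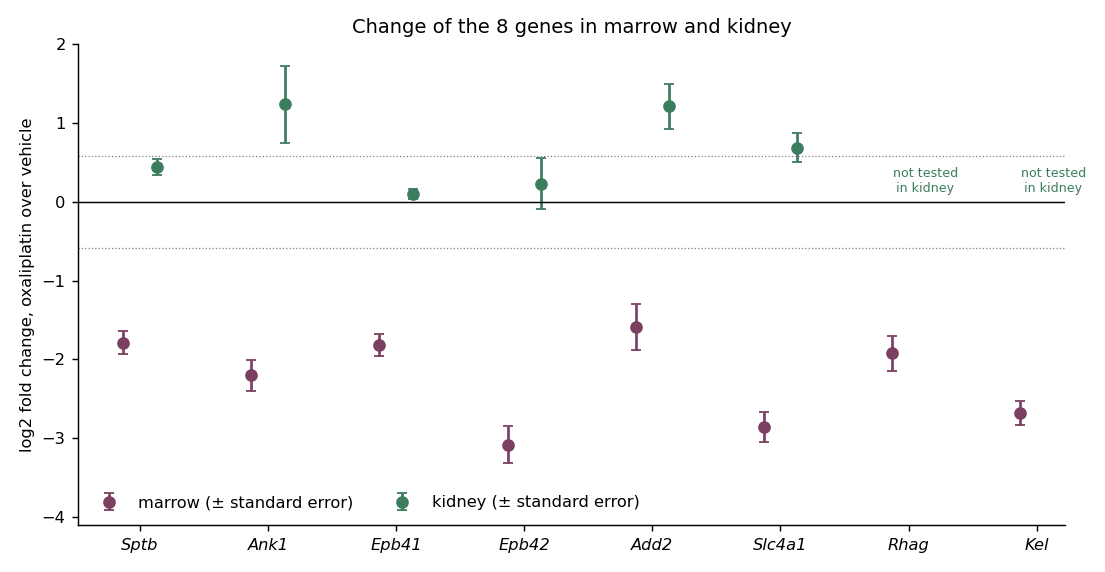
Points give the log2 fold change of oxaliplatin over vehicle with its standard error for the 8 genes in marrow and for the 6 tested in kidney (vertical axis), with dotted lines at a 1.5-fold change. Marrow values lie between -3.08 and -1.59 and kidney values between 0.10 and 1.23.

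Among the genes whose marrow pattern was most like the mean of the 8 were, by Pearson's r over 10 libraries with group means subtracted, Ubac1 (0.992), Car2 (0.988), Paqr9 (0.987), Blvrb (0.986), Xpo4 (0.985), Tspan33 (0.985) and Abcb10 (0.984). Blvrb is also among the late erythroid markers. Of these 7, 6 were called lower, with log2 fold changes from -2.43 (Tspan33) to -1.48 (Blvrb), while Xpo4 had -0.06 (adjusted p = 0.753). These correlations share the libraries and the depth of the genes they describe, and were not tested.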

How the data were processed

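RNA was sequenced from bone marrow and kidney of vehicle and oxaliplatin mice, 5 libraries per group. The authors used STAR with the Ensembl release 101 mouse genome and deposited raw counts per gene of uniquely aligned, unambiguous reads, with no normalization; the submitters' processing notes also name featureCounts and Salmon. Library chemistry is given as ribosomal depletion with random hexamers in the labels and as SMARTer cDNA in the methods. Strand use is not given in the sources used here. Groups came from the labels.

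Repeats of an identifier (all with identical counts) and 1 line lacking a count were dropped. The marrow, kidney and joined tables were fitted whole with edgeR 4.0.16 (R 4.3.3, limma 3.58.1): filterByExpr at a minimum count of 10, TMM scaling, robust quasi-likelihood test, two-sided, treatment as the term (tissue, treatment and interaction in the joined table), Benjamini-Hochberg adjustment over all genes tested. The SE of a log2 fold change was derived from the test statistic. Where nothing in the labels says that mice were housed or treated apart, p values measure the spread between these samples. The closest replicates differed by 7.57 in chi-square per degree of freedom, so none was a repeated library. Ratios used log2 CPM with a prior count of 2. The fits were tested on simulated data.

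The genes, the lists and the tests were chosen with earlier results of these data known. Named are the 8 genes, the called members of 3 lists (skeleton, blood group carriers, relatives) and list genes that a count of 5 or fewer refers to, the genes of the ratios, and the 8 genes most like the mean of the 8 averaging log2 CPM 1 or more. Hemoglobin genes, Alas2, Aqp6 and other marker genes were named after their values were seen.

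Alternatives were DESeq2 1.42.0, its size factors in edgeR, scaling by library size only, dropping the hemoglobin genes, keeping every gene with 1 count, requiring at least 10 counts in every library, a replicate block, a Y-linked covariate, a fold change beyond 2, each library left out, a prior count of 0.5 and ratios that were not logged; leaving out 2 libraries at once was added after seeing the data. Sequences are from RefSeq. Some single genes and the results that need them are not reported here. Protein sequences were not analysed here. Python 3.11.15 with matplotlib 3.10.9 made the figures.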

Additional observations from a re-analysis of the deposited data

Results flagged for a closer look

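By edgeR's interaction test over 20 libraries, the response to oxaliplatin differed between marrow and kidney for the 6 genes tested in both tissues. Rhag and Kel also passed, but had too few kidney counts to be tested there and entered the joined fit only through their marrow counts. The difference of the log2 fold changes, marrow minus kidney, was -2.16 for Sptb, -3.36 for Ank1, -3.48 for Slc4a1, -1.86 for Epb41, -3.23 for Epb42, -2.72 for Add2, -3.22 for Rhag and -4.12 for Kel. The adjusted p was between 4.2e-09 and 2.5e-04 for 7 of them and 0.00644 for Rhag, whose call did not hold without oxaliplatin kidneys 2 and 4 (adjusted p = 0.115). No library stood apart from its group of 5 by Dixon's 95% criterion in any of the 32 groups formed by the 8 genes, 2 tissues and 2 treatments.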

How the results depend on the processing

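In marrow all 8 genes stayed called lower in all 19 alternatives run for each, and the 8 interactions passed in all of theirs (30, or 29 for Rhag and Kel, which a minimum of 10 counts in every library removes) except Rhag without oxaliplatin kidneys 2 and 4 (-2.47, adjusted p = 0.115). In kidney the count of called genes went from 2 to 1 when every gene with 1 count was kept, with a replicate block, with a fold change beyond 2 and without oxaliplatin kidneys 2 and 4; it went to 3 under DESeq2 and with library size alone, with Ank1 gained, and leaving out each library gave between 1 and 3. The gene lost in each fall to 1 was Slc4a1. With a fold change beyond 2 the relatives called went from 7 to 1. The 4 ratios that passed became 0 when ratios were not logged and medians were compared, a statistic whose smallest exact permutation p was 0.0476; leaving out each library gave between 4 and 6. Epb41 to Sptb reversed to 0.0823 (unlogged medians) and, with libraries left out singly, lay between -0.134 and 0.0947, positive without vehicle mouse 2 or 4 or oxaliplatin mouse 3 or 4. Add2 to Sptb lay between -0.0673 and 0.221, negative without oxaliplatin mouse 3. Epb42 in kidney lay between -0.0250 and 0.367, negative without oxaliplatin mouse 2, and was -0.132 without oxaliplatin mice 2 and 4.

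Same-numbered vehicle and oxaliplatin libraries are different mice, and the correlation of their deviations lay between -0.15 and 0.23. This range was not set beside that of differently numbered libraries, so it cannot show whether the numbers mark a shared cage or batch. A replicate block on these numbers left the marrow calls at 8 and took Slc4a1 in kidney from an adjusted p of 0.0175 to 0.0536 in edgeR. In the interaction fit the block instead paired marrow and kidney libraries of the same treatment and number. The labels do not state that pairing, and the interaction calls stayed at 8. Depth limits Rhag and Kel in kidney, where counts were between 0 and 22.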
